A study of Mus musculus with 6 samples.

Results

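RNA levels of circadian clock genes were compared between fetal livers of FVB/NJ mice, taken at embryonic day 13.5 with and without the erythroid transcription factor Klf1. The 10 genes described here, Ciart, Cry1, Cry2, Per1, Per2, Per3, Arntl, Clock, Nr1d1 and Dbp, were chosen by name from 19937 genes with a probe set of their own, and each was read from its brightest single-gene probe set by mean over the 6 arrays. The choice was made with the difference between the genotypes known, so the differences of these 10 genes are given as a description and were not tested. The groups were 3 wildtype and 3 Klf1-/- samples from matings of heterozygous Klf1 +/- mice, with 1 Affymetrix 1-colour array each, and no drug or other treatment is named; each sample is called a liver below, although the labels do not say whether embryos were pooled. Livers were dissociated to single cells before RNA extraction, with no sorting named, so the RNA came from every cell type of the organ, and fewer cells of a type and less RNA per cell cannot be told apart. The sources used here give neither the alteration of the Klf1 allele, nor the hour of collection, nor the litters, and the p-values below measure only the spread between these samples.

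The circadian clock is a feedback loop of transcription that runs in most cells. CLOCK and ARNTL (also called BMAL1) bind E-boxes and switch on the Period and Cryptochrome genes, whose proteins return to the nucleus and block CLOCK and ARNTL; CIART, also called CHRONO, is a further repressor of the same pair. In a second loop NR1D1 (REV-ERB alpha) represses Arntl while ROR receptors activate it, and DBP carries the rhythm to output genes through D-boxes. In adult liver these genes cycle strongly over the day, whereas in most fetal tissues rhythms are weak or not yet synchronised between cells.

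The sequence in front of 5 of the genes is shown because it holds the elements through which the loop acts on itself: Ciart, Cry2, Per1 and Arntl had the largest differences between the genotypes, and Cry1 is the close relative of Cry2 that differed little. Each stretch is the 250 bases before the most upstream start in RefSeq (GRCm38.p6), with E-boxes (CACGTG), E-box-like sites (CACGTT or its reverse AACGTG) and D-boxes (TTATGNAA, both strands) in capitals. Ciart lies at chr3:95882229-95882478, minus strand, Cry2 at chr2:92434070-92434319, minus strand, Per1 at chr11:69098699-69098948, plus strand, Arntl at chr7:113207215-113207464, plus strand and Cry1 at chr10:85185055-85185304, minus strand.
Ciart: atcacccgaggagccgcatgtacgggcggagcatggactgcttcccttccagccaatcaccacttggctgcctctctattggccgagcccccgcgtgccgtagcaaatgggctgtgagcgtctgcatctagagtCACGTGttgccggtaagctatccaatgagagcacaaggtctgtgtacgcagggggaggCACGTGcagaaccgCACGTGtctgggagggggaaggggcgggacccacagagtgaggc
Cry2: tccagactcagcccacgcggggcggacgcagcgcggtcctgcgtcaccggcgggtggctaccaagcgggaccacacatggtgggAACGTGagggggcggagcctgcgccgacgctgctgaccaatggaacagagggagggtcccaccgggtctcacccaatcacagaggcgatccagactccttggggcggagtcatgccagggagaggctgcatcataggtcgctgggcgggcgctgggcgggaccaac
Per1: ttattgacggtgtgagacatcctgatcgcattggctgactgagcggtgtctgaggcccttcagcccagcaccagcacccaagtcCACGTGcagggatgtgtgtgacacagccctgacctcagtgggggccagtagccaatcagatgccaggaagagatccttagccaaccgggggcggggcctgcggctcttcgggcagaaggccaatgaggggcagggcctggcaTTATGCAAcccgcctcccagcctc
Arntl: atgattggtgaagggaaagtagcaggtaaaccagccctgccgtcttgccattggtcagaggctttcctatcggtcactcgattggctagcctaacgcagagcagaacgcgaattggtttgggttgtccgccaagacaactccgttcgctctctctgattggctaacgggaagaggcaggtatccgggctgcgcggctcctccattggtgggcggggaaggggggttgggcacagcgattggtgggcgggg
Cry1: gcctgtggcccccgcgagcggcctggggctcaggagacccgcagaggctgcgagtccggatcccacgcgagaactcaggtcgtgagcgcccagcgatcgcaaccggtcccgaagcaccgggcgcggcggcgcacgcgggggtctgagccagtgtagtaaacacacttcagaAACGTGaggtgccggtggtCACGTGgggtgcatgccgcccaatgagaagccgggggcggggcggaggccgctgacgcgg

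The stretch before Ciart held 3 E-boxes, at 116, 58 and 44 bases before its start. A single E-box was found before Cry1 and before Per1, an E-box-like site before Cry1, Cry2 and Nr1d1, and D-boxes before Per1 and Per3. Of 32851 promoter windows of this length 6.02% held an E-box, 3.85% an E-box-like site and 3.07% a D-box; 20 windows, or 0.0609%, held at least 3 E-boxes, a count made after the Ciart sequence was seen. The CACCC-type motif CCNCNCCC, the kind of sequence that KLF1 binds, was found on either strand before all 9 members that had a window, in 12 of their 13 windows, against 45.9% of all windows; windows were not matched for base composition, and no test was made. The ROR-type motif AGGTCA was found before Per1 and at 1 of the starts of Clock, against 14% of all windows. No motif overlapped one of another kind in the windows of these genes, while CACCC-type matches overlapped each other before Cry1, Per1 and Per3; a match is a description of letters, not of binding. Per2 had no window in the table and is named only.

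The targeted gene was lower in every knockout liver. Klf1 read 10.59, 10.58 and 10.76 on the log2 scale in wildtype replicates 1, 2 and 3 and 9.05, 9.38 and 9.12 in the knockout replicates, a limma difference of -1.46 ± 0.10 (SE; adjusted p = 3.7e-06). The median log2 intensity over genes lay between 7.00 and 7.05 on the 6 arrays, with lower quartiles from 5.39 to 5.57, which gives a scale for how dim a gene was. The liver markers Alb, at 13.78 to 14.03, and the red cell band 3 gene Slc4a1, at 12.68 to 13.71, were bright on all arrays. In all, limma called 19.1% of genes (Benjamini-Hochberg adjusted p under 0.05), 10.8% as higher and 8.26% as lower in the knockout; 43.2% of calls were lower, against 61.0% when each array was centred on its 75th percentile. Each difference below is the knockout mean less the wildtype mean in log2 units, and the value after ± is its standard error from that fit.

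The widest differences were those of Ciart, Cry2 and Per1, all in the repressing arm. Sizes within the arm were unequal: Cry1, Per2 and Per3, at 0.19, 0.13 and 0.22, differed less than Arntl of the activating arm, at 0.40. By its brighter probe set Ciart had the largest difference of the 10, a rank it does not hold by its other set, described next. It read 5.49, 6.23 and 5.98 in wildtype replicates 1 to 3, where the first was at the lower quartile of genes and the others between it and the median, and 7.89, 7.91 and 7.76 in the knockout replicates. The groups did not overlap, and the gap between them was wider than the whole spread within wildtype. The difference was 1.95 ± 0.15, a ratio of 3.86, and it ran from 1.74 without wildtype replicate 1 to 2.11 without wildtype replicate 2.

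Ciart was the only one of the 10 genes with more than 1 single-gene probe set. The other set read 6.02, 6.05 and 6.10 in wildtype and 7.14, 6.81 and 7.06 in knockout livers. Both sets were thus higher in all knockout than in all wildtype livers, but in a fit over all probe sets the other set differed by 0.95 ± 0.10 and the brighter set by 1.95 ± 0.18. By the other set the difference of Ciart was level with that of Cry2, at 0.95. The mean of both sets differed by 1.45. The numbers of the sets give a further description: of the 20 named probe sets numbered closest to the brighter Ciart set 19 belong to genes on chromosome 10, whereas all 20 around the other set belong to genes on chromosome 3, where Ciart lies. For each of the 9 other genes at least 19 of the 20 closest numbers fell on the gene's own chromosome. Whether the brighter set also reads a sequence elsewhere was not tested.

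The Cryptochromes, which block CLOCK and ARNTL directly, went apart in size. Cry2 read 7.68, 7.64 and 7.65 in wildtype and 8.47, 8.71 and 8.65 in knockout livers, a difference of 0.95 ± 0.08 and a ratio of 1.94. The wildtype livers were nearly identical for Cry2, and every knockout liver stood well above them. Cry1 read 7.60, 7.59 and 7.35 in wildtype and 7.80, 7.67 and 7.64 in knockout livers. The Cry1 groups did not overlap, but their nearest livers were almost level and the difference was 0.19 ± 0.09. Cry1 thus differed less than Cry2, and the difference between them was not tested. The window of Cry1 holds both an E-box and an E-box-like site and that of Cry2 the E-box-like site alone. Any link of these motifs to the differences was not tested.

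Of the Period genes, whose proteins carry the Cryptochromes into the nucleus, Per1 had the largest difference. It read 7.35, 7.38 and 7.63 in wildtype and 7.93, 8.08 and 8.09 in knockout livers, a difference of 0.58 ± 0.09. All knockout livers stood above all wildtype livers. Per2 read 7.44, 7.39 and 7.63 in wildtype and 7.52, 7.68 and 7.64 in knockout livers, a difference of 0.13 ± 0.09. Per3, the member least needed for the rhythm itself, read 6.72, 7.22 and 6.93 against 7.14, 7.12 and 7.26, a difference of 0.22 ± 0.12. In both Per2 and Per3 a wildtype liver stood inside the knockout range.

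**Figure D1:**
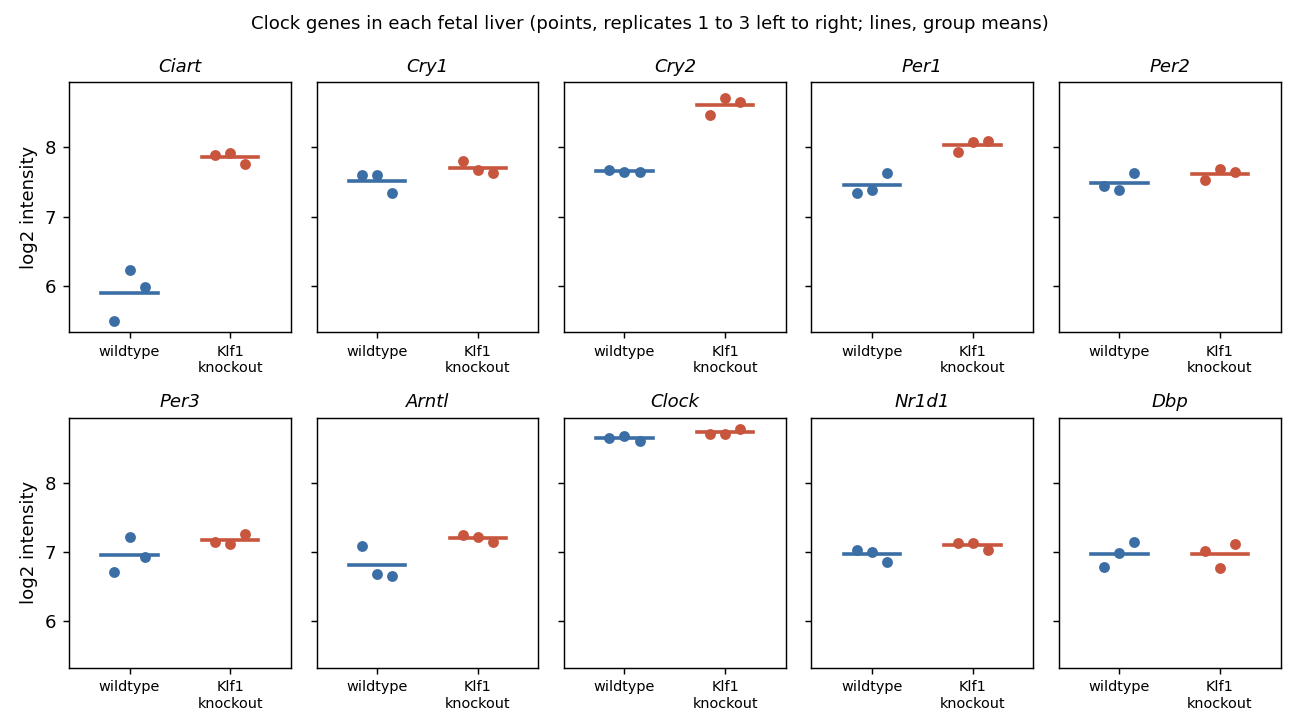
Log2 intensity of the 10 clock genes in each fetal liver, 1 panel a gene, with wildtype in blue, Klf1 knockout in red, points for replicates 1 to 3 and a line at each group mean. Ciart, Cry2 and Per1 show the widest gaps between the groups, and the groups overlap in Per2, Per3 and Dbp.

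In the activating arm, Arntl read 7.08, 6.68 and 6.65 in wildtype and 7.24, 7.22 and 7.15 in knockout livers, a difference of 0.40 ± 0.11. The groups did not overlap, but wildtype replicate 1 was close to the knockout livers, and the difference ran from 0.32 without wildtype replicate 3 to 0.53 without wildtype replicate 1. Clock, the partner of Arntl, read 8.65, 8.68 and 8.60 in wildtype and 8.70, 8.71 and 8.77 in knockout livers. The Clock groups were separate but adjacent, with a difference of 0.08 ± 0.07, and it shrank to 0.01 after quantile normalization and to 0.02 after centring on the 75th percentile.

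The second loop and the output arm are represented by Nr1d1 and Dbp. Nr1d1, the repressor of Arntl, read 7.03, 7.01 and 6.86 in wildtype and 7.13, 7.13 and 7.03 in knockout livers, a difference of 0.13 ± 0.08. The highest wildtype and the lowest knockout liver were level to 2 decimals. Dbp, the D-box factor whose level swings widely in adult liver, read 6.79, 6.99 and 7.15 in wildtype and 7.02, 6.76 and 7.12 in knockout livers. The Dbp groups lay on top of each other; the difference was -0.01 ± 0.12, and it changed sign with 1 liver left out, from -0.10 without wildtype replicate 1 to 0.09 without knockout replicate 2.

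Across the 10 genes 9 differences were above 0 and the median was 0.21, beside a median of -0.02 over all genes. Ciart, Cry2, Per1 and Arntl, 4 of 10, were among the genes limma called, all as higher, where 10.8% of all genes were called higher; Arntl was the member lost from this count with quantile normalization, with centring on the 75th percentile, and without wildtype replicate 2 or 3 or any 1 of the knockout replicates, and without wildtype replicate 2 Per3 entered it. In 7 of 10 the groups did not overlap with the knockout higher, against 19% of all genes; counted in either direction the share was 37.5%. These counts describe genes that were chosen with this contrast known, and nothing is read from them.

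Among livers of the same genotype the clock genes spread unequally. By its brighter set the residual standard deviation of Ciart was at the 98.3 percentile of all genes, but by its other set at 61.8, a comparison added after the data were seen. That of Per3 was at 88.4, Dbp at 87.3 and Arntl at 84.6, whereas that of Cry2 was at 34.5, Nr1d1 at 24.1 and Clock at 3.78. Per1, Cry1 and Per2 were in the middle, at 61.6, 58.0 and 50.5. Against the wildtype mean, wildtype replicate 1 deviated by -0.24 in Per3, -0.19 in Dbp and 0.28 in Arntl, and wildtype replicate 2 by 0.26 in Per3 and -0.12 in Arntl. The brighter Ciart set deviated by -0.41 in replicate 1 and 0.33 in replicate 2, whereas in the other set the widest wildtype deviation was 0.04. In wildtype replicate 3 the signs were opposite to those of replicate 1 for Arntl, at -0.15, and Dbp, at 0.17, and Per1 and Per2 were above their means by 0.17 and 0.15. Among knockout livers the widest deviations were those of Dbp, at -0.20 in replicate 2 and 0.15 in replicate 3, and of Cry2, at -0.14 in replicate 1; the other Ciart set deviated by -0.19 in replicate 2 and 0.14 in replicate 1. With 3 livers a group these deviations were not tested.

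**Figure D2:**
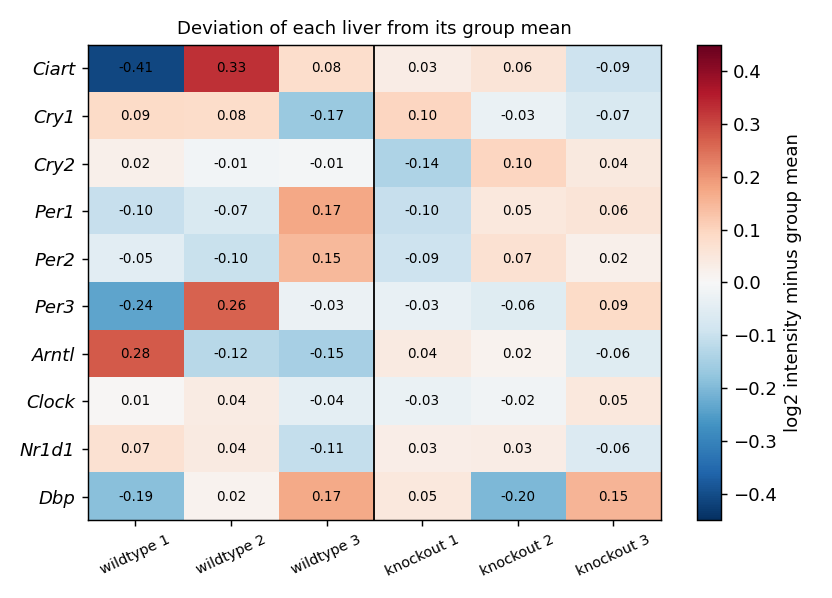
Deviation of each liver from the mean of its genotype, on the log2 scale, for the 10 clock genes in rows and the 6 livers in columns, with red above and blue below the mean; Ciart is its brighter probe set. Wildtype replicate 1 is low in Ciart, Per3 and Dbp and high in Arntl, wildtype replicate 2 is high in Ciart and Per3, and Clock is nearly flat in all livers.

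Other genes of or around the clock, none of them a member, went both ways. The lists reach beyond the loop itself, to signals, signal-responsive genes and further nuclear receptors. Of 71 listed in 6 lists 65 were measured, and limma called 11 as higher, or 16.9%, and 10 as lower, or 15.4%, against 10.8% and 8.26% of all genes; 44 were not called. Without knockout replicate 2 the genes called higher numbered 7, and without wildtype replicate 2 or knockout replicate 3 those called lower numbered 6. The median difference of the 65 was 0.06. Counts of genes higher, lower, rising or falling in the lists below are counts of called genes.

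In the list of clock partners and loop paralogs 2 of 11 rose, 1 fell and 8 were not called. Bhlhe40 (DEC1), an E-box repressor that is itself a clock and hypoxia target, read 6.22, 6.23 and 6.29 in wildtype and 6.59, 6.81 and 6.89 in knockout livers, and rose by 0.52 ± 0.09 (limma adjusted p = 0.0026). Every knockout liver was above every wildtype liver in this gene. Rora, an activator of Arntl, rose by 0.27 ± 0.08 (adjusted p = 0.035) and Tipin, a replication fork partner of Timeless, fell by 0.29 ± 0.08 (adjusted p = 0.034); Rora was not called with any 1 liver left out, nor Tipin with any left out but wildtype replicate 3. Nr1d2, the paralog of Nr1d1, at 0.10 ± 0.12, and the D-box factors Tef, at 0.16 ± 0.09, Hlf, at -0.01 ± 0.09, and Nfil3, their antagonist, at 0.06 ± 0.07, were not called; they are named beside Nr1d1 and Dbp after their values were seen. None of these 4 passed the test.

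Genes for the kinases and turnover of clock proteins had 3 of 11 higher and 2 lower. Csnk1e, the casein kinase that marks Period proteins for destruction, read 8.79, 8.80 and 8.69 in wildtype and 9.30, 9.21 and 9.25 in knockout livers and rose by 0.50 ± 0.08 (limma adjusted p = 0.0011). Usp2, a deubiquitinase that is also a clock output, rose by 0.57 ± 0.08 (adjusted p = 0.00038), while Usp7, a deubiquitinase of Cryptochromes and of many other proteins, fell by 0.93 ± 0.07 (adjusted p = 9.5e-06), from 12.18, 12.17 and 12.22 to 11.22, 11.31 and 11.26. The groups did not overlap in any of these 3 genes. The remaining calls were the paralogous ubiquitin ligase genes Btrc and Fbxw11, which are named after their values were seen: Btrc fell by 0.37 ± 0.07 and Fbxw11 rose by 0.38 ± 0.08. Csnk1d, the close relative of Csnk1e, was at 0.15 ± 0.08 and not called.

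Cofactors of the clock, which modify chromatin or bind its proteins, had 1 of 11 lower and 0 higher. Sirt1, a deacetylase linked to CLOCK, fell by 0.32 ± 0.08 (limma adjusted p = 0.019), a call lost when wildtype replicate 1, wildtype replicate 2 or knockout replicate 3 was left out. In the list of outputs 3 of 13 rose and 3 fell. Lpin1, a phosphatase of lipid synthesis, rose by 0.58 ± 0.14 (adjusted p = 0.014), a call lost without wildtype replicate 2 or knockout replicate 2, and Noct, a rhythmic phosphatase, fell by 0.53 ± 0.07 (adjusted p = 0.0005), from 9.74, 9.73 and 9.76 to 9.18, 9.20 and 9.25. The fatty acid elongase gene Elovl3 fell by 0.41 ± 0.09 (adjusted p = 0.0084) but averaged below the lower quartile of genes on every array. The rises in this list numbered 0 without knockout replicate 2 and 1 without wildtype replicate 2, and these outputs went both ways.

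The list of signals that act on the Period genes, and of genes that respond to such signals, held the widest single difference of the 6 lists. In it 2 of 13 were higher and 2 lower. Dusp1, a phosphatase that ends MAP kinase signals and is induced by the same stimuli as Per1, fell by 2.91 ± 0.10 (limma adjusted p = 2.1e-08), from 10.50, 10.78 and 10.83 to 7.73, 7.90 and 7.75. Klf10, a Krüppel-like clock output that also feeds back on the loop, fell by 0.78 ± 0.10 (adjusted p = 0.0003). Crem, a cAMP-responsive factor, rose by 0.88 ± 0.10 (adjusted p = 0.00017), from 7.30, 7.06 and 7.08 to 7.84, 8.08 and 8.16. The remaining call, Crtc2, the coactivator of CREB at the Per1 promoter, rose by 0.40 ± 0.07 and is named after its value was seen. The glucocorticoid-responsive genes Tsc22d3, at 0.27 ± 0.10, Fkbp5, at -0.06 ± 0.09, and Sgk1, at -0.02 ± 0.08, were not called, nor were Fos, at -0.18 ± 0.09, and Egr1, at 0.21 ± 0.08. Per1, Crem and Crtc2 were thus higher, and Dusp1 and Klf10 lower, in the knockout group. Within wildtype, Per1, at 7.35, 7.38 and 7.63, had the same order of replicates as Dusp1, and Crem was highest where Per1 was lowest. Klf10, at 8.66, 8.54 and 8.28, had the opposite order to Per1 there. These orders did not hold among knockout livers. There Crem had the same order as Per1, at 7.93, 8.08 and 8.09, and Dusp1 had another. The part of these genes in the level of Per1 was not tested.

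Of 6 other nuclear receptors Thra rose and Nr1h3 fell. Nr1h3, a sterol receptor, fell by 0.28 ± 0.08 (limma adjusted p = 0.037), and was not called with any 1 liver left out.

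**Figure D3:**
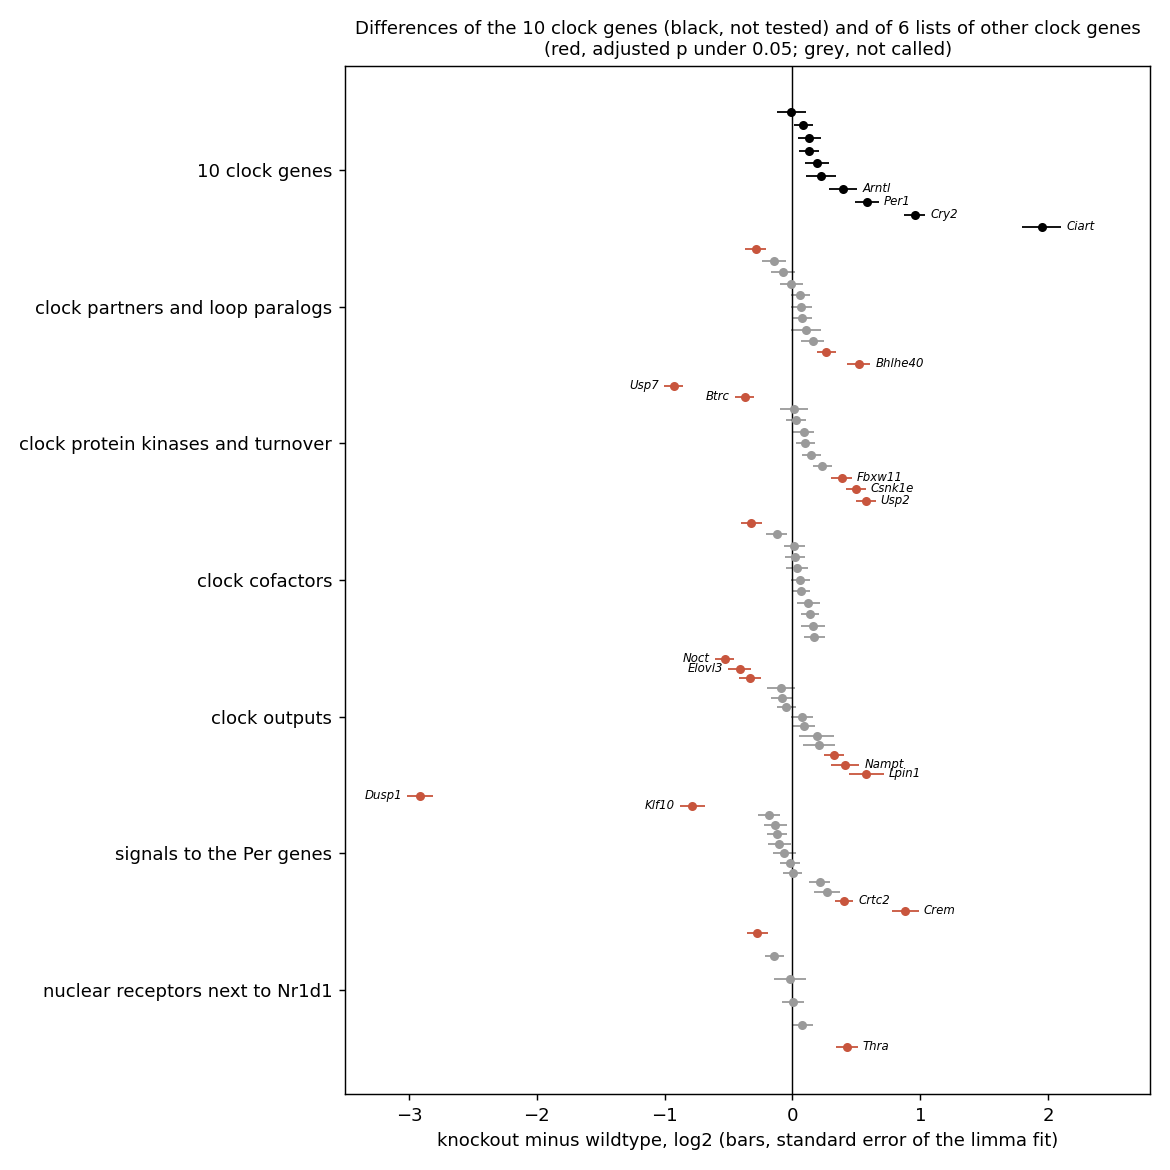
Difference between the genotypes (knockout less wildtype, log2 units, bars for limma standard errors) for the 10 clock genes (black, described and not tested) and for the measured genes of 6 lists of other genes of or around the clock (red where adjusted p was under 0.05, grey where not). Ciart at 1.95 by its brighter probe set and Dusp1 at -2.91 are the widest differences to either side, and most of the other listed genes sit near 0.

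The genes next to the members on the chromosome were read on the same arrays. Of the 20 measured genes that flank the 10 members 3 were called higher, or 15%, and 0 lower, against 10.8% and 8.26% of all genes, and 17 were not called. Slc35c1, the Golgi transporter of GDP-fucose, follows Cry2 on the chromosome. It read 7.93, 7.90 and 7.81 in wildtype and 8.69, 8.91 and 8.82 in knockout livers, and rose by 0.93 ± 0.08 (limma adjusted p = 2.6e-05), beside 0.95 for Cry2. Among knockout livers replicate 1 was lowest and replicate 2 highest in both genes, an order also found in Mrps21, next to Ciart. The wildtype order differed, with the lowest value in replicate 2 for Cry2 and in replicate 3 for Slc35c1. Mapk8ip1, on the other side of Cry2, was at -0.17 ± 0.09 and not called.

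Thra, the thyroid hormone receptor alpha gene, overlaps Nr1d1 on the other strand in the gene models. It read 9.88, 9.90 and 9.71 in wildtype and 10.33, 10.24 and 10.19 in knockout livers, and rose by 0.43 ± 0.08 (limma adjusted p = 0.0053), against 0.13 for Nr1d1, and which probes lie in the shared stretch was not tested. Mterf2, before Cry1, rose by 0.47 ± 0.13 (adjusted p = 0.027), a call lost when wildtype replicate 1 or 3, or knockout replicate 1 or 2, was left out. The neighbours of Ciart were not called: Mrps21, a mitochondrial ribosomal protein gene, was at 0.22 ± 0.08 (adjusted p = 0.082) and BC028528 at 0.13 ± 0.11 (adjusted p = 0.46). Mrps21 was called with 4 other settings, with adjusted p from 0.023 to 0.041, at differences of 0.22 to 0.29, far below that of Ciart.

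**Figure D4:**
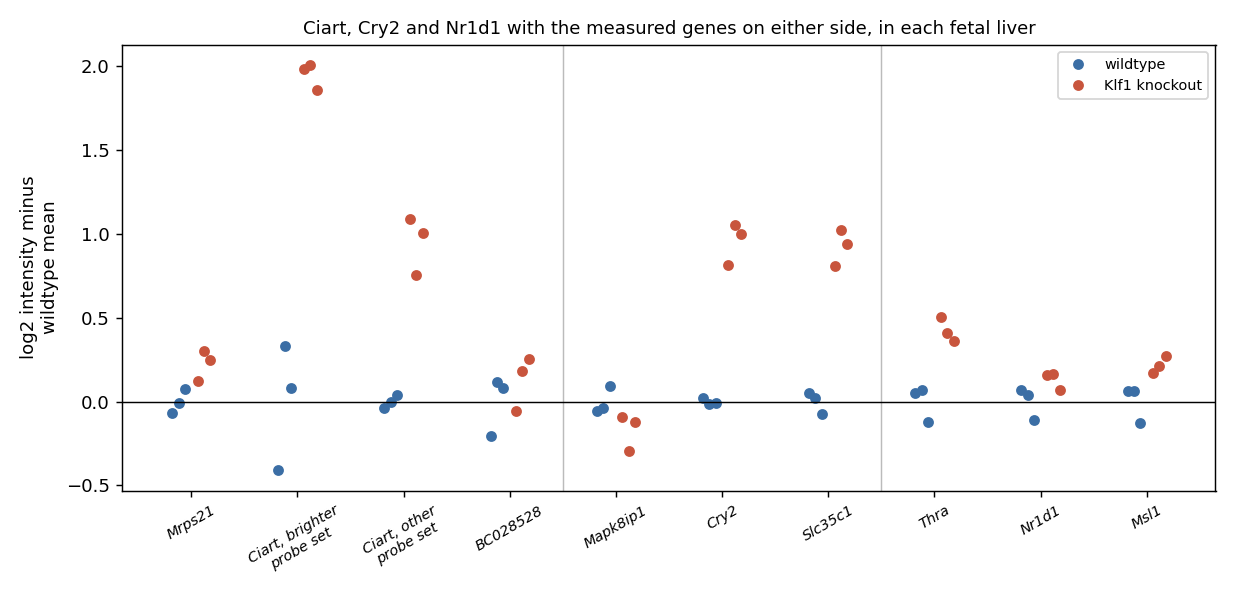
Log2 intensity of each liver less the wildtype mean of the same probe set, for Ciart by both of its probe sets, Cry2 and Nr1d1, each between the measured genes that flank it, with wildtype in blue and Klf1 knockout in red. Slc35c1 stands as high as Cry2 in the knockout livers, whereas the genes on both sides of Ciart reach at most 0.30 from their wildtype means.

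The genes whose profile over the 6 livers was most like that of Ciart depended on its probe set, and none of the 5 nearest was a clock gene by either set. By the brighter set and the root mean square difference of mean-centred log2 values, the nearest were the embryonic globin gene Hbb-bh1, at 0.20, Foxh1, a partner of SMAD proteins, at 0.24, Fam160a1, at 0.25, Cox6b2, a testis form of a respiratory chain subunit, at 0.26, and Tmed8, at 0.26. Of the other clock genes Cry2 came closest, at 0.55, with 115 genes nearer to Ciart, followed by Per1, at 0.72, with 511 nearer. Dbp was farthest, with 8903 genes nearer. By the other set, a comparison added after the data were seen, 0 of these 5 genes stayed among the nearest 5, which were Podxl, Tmem255a, Mtm1, Tspoap1 and Irs2, at 0.071 to 0.093. Cry2 was again the closest clock gene, at 0.17 with 102 genes nearer, followed by Per1, at 0.24 with 447 nearer. With 2 genotypes and 6 livers this measure mostly follows the size of the difference between the groups.

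Markers of the cell types in fetal liver moved with the genotype as well. In the counts here rose and fell mean called by limma, against 10.8% of all genes called higher and 8.26% lower. Called or not, all measured red cell, macrophage and mesenchymal markers had differences below 0, and all granulocyte markers above 0. Also above 0 were 7 of 8 endothelial, 5 of 9 stem and progenitor and 3 of 9 hepatoblast markers. Of the red cell markers 6 of 8 measured fell and their summed intensity was 40519 to 45218 in wildtype and 19572 to 21737 in knockout livers. All 7 measured megakaryocyte markers rose, with sums from 15013 to 15748 in wildtype and from 19313 to 25292 in knockout livers; 5 of 9 stem and progenitor markers rose (3 without wildtype replicate 2 or knockout replicate 2), with sums from 2707 to 2826 and from 3590 to 4051, and 4 of 10 granulocyte markers rose (2 when either replicate 3 was left out and with quantile normalization, 6 when either replicate 1 was left out, and 7 or 8 with the dim genes left out, a trended robust prior or array weights), with sums from 5698 to 6400 and from 7277 to 9242. Macrophage markers fell in 6 of 10, with sums from 4663 to 5647 and from 3466 to 3897. Hepatoblast markers fell in 2 of 9, Apoa1 and Fgb, 1 of them called when wildtype replicate 2 or knockout replicate 1 was left out and 0 with quantile normalization, with housekeeping centring, or when wildtype replicate 3, knockout replicate 2 or knockout replicate 3 was left out, and their sums overlapped, at 48004 to 56810 and 45632 to 49387. Endothelial markers rose in 2 of 8 (0 with 3 other scalings, or when wildtype replicate 1, wildtype replicate 2 or knockout replicate 3 was left out, 1 without knockout replicate 2, 4 with array weights or the replicate block, and 5 without wildtype replicate 3), and mesenchymal markers fell in 1 of 8 (4 without wildtype replicate 1, 2 with the dim genes left out, array weights or the replicate block, and 0 without knockout replicate 2). Of the endothelial markers Lyve1 had the widest difference and went the other way, at -0.48 ± 0.16, not called. With the dim genes left out, with the replicate block or without wildtype replicate 2, 1 endothelial marker was called lower. No marker is at 0 on this scale, which has no true zero, and the part of cell makeup in the levels of Ciart, Cry2, Per1 and Arntl was not tested.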

How the data were processed

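The authors hybridised biotin-labelled RNA of 6 livers to Affymetrix Mouse Gene arrays, per the labels' protocols, and deposited probe set intensity values; per the submitters' processing notes, RMA and Affymetrix Power Tools 1.8.6 were used. RMA equalises the arrays, so a change in total RNA cannot be seen. The genome build is not given in the sources used here. The deposited values are linear, and log2 was taken; there was no further scaling and no filter on dim genes. The platform annotation gave 21640 of 34760 probe sets 1 gene, 1321 several and 11799 none named here; taking the brightest single-gene probe set gave 19937 genes.

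The genotypes were compared with limma 3.58.1 (lmFit, then eBayes; R 4.3.3; two-sided), and p-values were adjusted over the 19937 genes by Benjamini-Hochberg. An exact permutation test of 3 against 3 cannot go below p = 0.10, so it was not used. The fit was also run on simulated data with 200 genes changed and noise drawn independently for each gene. The outcome is not given here, and no result rests on it. The 10 members, the lists and the tests were chosen with earlier results of these data known. Named beside the members were Klf1, Thra, from each list the 3 called genes that changed most (where none was called, the smallest 2 p-values), called flanking genes and both for Ciart, and the 5 profiles nearest to Ciart. Neighbours were taken from the order of genes in the GRCm38.p6 table, and promoters from RefSeq on that build. The settings tried instead were centring on the 75th percentile or on 11 housekeeping genes, quantile normalization, a filter at the median level, the mean of probe sets, a trended robust prior, array weights, a replicate block, leaving out each array and, added after seeing the data, the other probe set of Ciart.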

Additional observations from a re-analysis of the deposited data

How the results depend on the processing

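Of 138 values for the 10 clock genes under the alternatives 134 stayed within the spread between replicates; the others were Clock, at 0.01 with quantile normalization and 0.02 with centring on the 75th percentile, and Ciart, at 1.45 with the mean of its probe sets and 0.95 with its other set, an alternative chosen after seeing the data that left 4 of 10 called. The filter at the median level left out Ciart, Arntl and Dbp, and of the 7 clock genes it kept 2 were called; otherwise 3 or 4 of 10 were called, also with any 1 array left out. The sign of Dbp turned to 0.02 with array weights. Over all genes 3809 were called, and 2409 to 3749 with 1 array left out, lowest without knockout replicate 2. Of the other listed genes of or around the clock 21 were called, and 14 to 19 with 1 array left out, with 7 to 12 higher and 6 to 9 lower. Of the calls 43.2% were lower; the share was 61.0% when arrays were centred on the 75th percentile and 36.2% on housekeeping genes. Of 344 values for the named genes outside the 10, 305 kept their side of the threshold, 35 lost a call, 4 gained one and 0 changed sign; the calls lost were those of Rora, Tipin, Nr1h3, Sirt1, Lpin1 and Mterf2. The labels number replicates 1 to 3 in both groups, but livers of the same number did not deviate together (correlations of -0.16, -0.22 and 0.18 over genes), and only the livers numbered 3 matched each other best. With the replicate block 3498 genes were called, among them 4 of the 10 and 19 of the other listed genes. Ciart was dim in wildtype by both probe sets, where its widest deviation was -0.41 in the brighter set and 0.04 in the other. Whether dim levels limit the precision was not tested.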
